A study of Mus musculus with 2 samples.

Results

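The microRNA hairpins that lie inside the genes of 2 neurotransmitter receptors of the X chromosome were described in the midbrain of newborn mice. They are Mir448, Mir764, Mir1264, Mir1298 and Mir1912 within Htr2c, and Mir224 and Mir452 within Gabre, 7 of the 1973 microRNA genes counted. The rule that chose them uses symbol and position, through the match of gene identifiers to the GENCODE annotation, and no measured value. It was set with earlier results of these data known. The series has 1 group of 2 libraries, each from total RNA of a single whole midbrain (pup 1 and pup 3) of strain B6NCrl on postnatal day 0, size-selected below 30 bases. No genotype, treatment, second age or second tissue is among the samples, both labels carry the same donor identifier, and sex was not collected. The libraries are treated as 2 animals because the labels name pup 1 and pup 3, but the shared identifier leaves this uncertain. In whole tissue, fewer cells of a type and less RNA per cell cannot be told apart.

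Htr2c encodes the serotonin receptor 5-HT2C, a G protein-coupled receptor of neurons whose transcript is also abundant in the epithelium of the choroid plexus, and Gabre encodes the epsilon subunit of the GABA-A receptor, a chloride channel. A microRNA that sits in an intron is usually transcribed with its host gene, cut out as a hairpin and trimmed to a short duplex, 1 strand of which guides the silencing of messenger RNAs. The bases at positions 2 to 8 of that strand, the seed, pair with the target. The host messenger RNAs themselves were not measured here.

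The mature sequences of the 4 hairpins with the highest counts and of Mir452, the neighbour of Mir224, are shown because the results turn on them. They are RefSeq sequences on GRCm38.p6, 5′ to 3′, with the seed in capitals. The counts are per hairpin, so they do not say which of the 2 arms was sequenced.
miR-1298-5p: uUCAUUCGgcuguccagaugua
miR-1298-3p: cAUCUGGGcaacugauugaacu
miR-448-5p: gAACAUCCugcauagugcugcc
miR-448-3p: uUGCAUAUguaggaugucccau
miR-1264-3p: cAAAUCUUauuugagcaccugu
miR-224-5p: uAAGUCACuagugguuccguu
miR-224-3p: aAAUGGUGcccuagugacuaca
miR-452-5p: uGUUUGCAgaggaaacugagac
miR-452-3p: uCAGUCUCaucugcaaagaggu

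RefSeq held 12 mature sequences for the 7 hairpins, from 19 to 22 bases long, and their 12 seeds were all different. Sharing an intron or a host therefore did not go with a shared seed in these hairpins. Seeds were looked for in a set of 1738 mature sequences, but matches on 1 autosome were left out before counting. Among the matches kept, 1 of another gene had the seed of a member, miR-7062-5p with that of miR-764-3p. Among the same matches, the closest relation to an abundant microRNA was that of miR-448-3p to miR-153-3p. These 2 match at bases 2 to 7 and differ at base 8. Here the capitals again mark bases 2 to 8.
miR-448-3p: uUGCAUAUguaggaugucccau
miR-153-3p: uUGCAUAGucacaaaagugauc

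Mir153, which lies in an intron of the neuronal gene Ptprn2, reached 8701 CPM in pup 1 and 9902 CPM in pup 3, where CPM are own-strand counts scaled to 1000000 counts on genes. Mir448 had 145 CPM and 178 CPM in the same libraries, far below Mir153 in both. The hairpin of the most abundant member, Mir1298, and that of Mir224 are given whole, with the mature arms in capitals, to show what a count covers: any short read of either arm.
Mir1298: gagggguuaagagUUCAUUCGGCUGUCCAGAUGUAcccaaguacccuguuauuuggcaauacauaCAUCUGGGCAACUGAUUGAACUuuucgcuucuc
Mir224: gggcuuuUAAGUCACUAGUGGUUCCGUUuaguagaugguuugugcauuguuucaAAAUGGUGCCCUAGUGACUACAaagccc

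By position on GRCm38 (mm10), Htr2c spans chromosome X from 146962513 to 147197277 on the plus strand. In its transcript Htr2c-202, which has 6 introns, 4 of the 5 hairpins lie in intron 3, which is 85.3 kb long. In the order of transcription these are Mir764 (ENSMUSG00000076458.1) from 147002259 to 147002366, Mir1912 (ENSMUSG00000093039.1) from 147009441 to 147009527, Mir1264 (ENSMUSG00000093122.1) from 147010601 to 147010686, and Mir1298 (ENSMUSG00000080331.1) from 147064905 to 147065002. Mir448 (ENSMUSG00000065450.1) lies alone among the members in intron 5, from 147158210 to 147158321. Gabre spans chromosome X from 72255999 to 72274803 on the minus strand. Mir452 (ENSMUSG00000070138.1), from 72262224 to 72262308, and Mir224 (ENSMUSG00000065542.1), from 72261031 to 72261112, share intron 6 of the 8 introns of Gabre-201, with 1111 bases between them. None of the 7 hairpins overlaps an exon of any annotated transcript of its host.

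**Figure D1:**
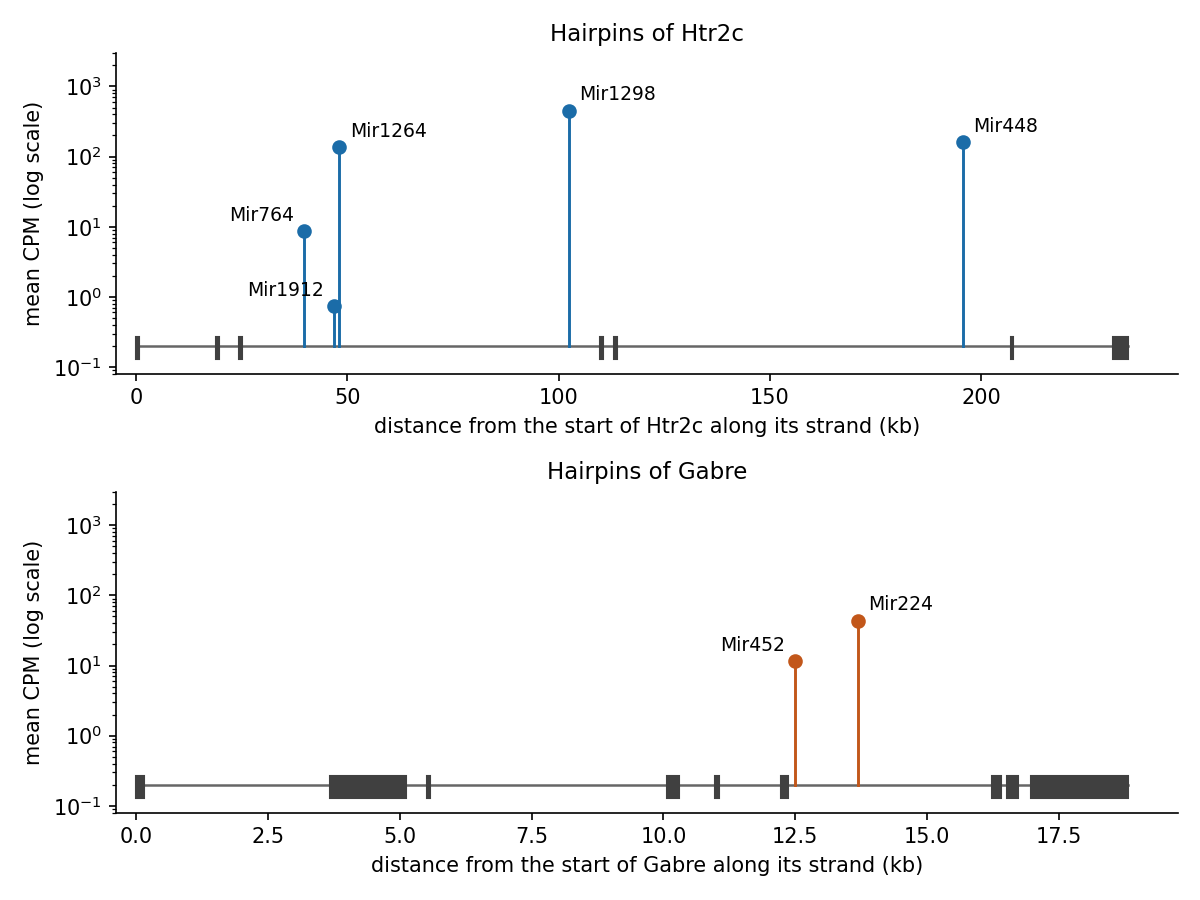
Hairpins along Htr2c (top) and Gabre (bottom): the x axis is the distance from the start of the host gene along its strand in kb, the y axis the mean level over the 2 pups in CPM on a log scale, dark boxes are exons of Htr2c-202 and Gabre-201 drawn at an arbitrary height with a minimum width, and each stem ends at the level of 1 hairpin. Mir1912 and Mir1264 stand beside each other in intron 3 of Htr2c at 0.741 and 137 CPM.

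Genes held 2337113 own-strand counts in the library of pup 1 and 3195277 in that of pup 3, where 3 counts equal 1.28 and 0.939 CPM. Reads that map to several places, 38.7% and 39.8% of all reads, entered no gene. Each member was compared with 2202 annotated hairpins, and none shared an exact run of 20 bases with another hairpin. Copies elsewhere in the genome, near matches and shorter runs were not looked for. How many reads of the members were lost in this way is therefore not known. None of the 7 had a count on its opposite strand in either library. As a check of the labelled tissue, the neuronal microRNAs Mir137, Mir153, Mir132 and Mir212 were all detected, with a sum of 33330 CPM in pup 1 against 38872 CPM in pup 3.

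With at least 10 counts required in both libraries, 6 of the 7 hairpins were detected, against 18.2% of all 1973 genes and 34.2% of the 120 microRNA genes of the X chromosome. Together the 7 held 0.0812% ± 0.00413 (SD, n = 2) of the own-strand counts. The Htr2c hairpins summed to 741 CPM in pup 1 and to 773 CPM in pup 3, or 757 ± 22.7 CPM (SD, n = 2). The Gabre hairpins had a sum of 41.9 CPM in pup 1 against 68.2 CPM in pup 3, or 55.1 ± 18.6 CPM (SD, n = 2). The Htr2c sum was thus 17.7-fold the Gabre sum in pup 1 and 11.3-fold in pup 3. The median level of the 7 members was 43.5 CPM, and that of the 359 detected genes was 225 CPM.

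Mir1298 was the most abundant member. It had 1065 counts in pup 1 and 1409 in pup 3, which is 456 CPM (exact Poisson 95% interval 429 to 484) and 441 CPM (418 to 465). Its mean of 448 ± 10.4 CPM (SD, n = 2) gave it rank 147 among all genes and rank 17 on the X chromosome, where Mir322 led with 6629 CPM. It was the only member above the median of the detected genes. Mir1298 made up 61.5% of the Htr2c counts in pup 1 (exact binomial 95% interval 59.2 to 63.8) and 57.1% in pup 3 (55.1 to 59.0). These intervals, which cover counting error only, do not overlap.

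Mir448, whose microRNA has been studied in the differentiation of fat cells, came next with 338 counts in pup 1 and 570 in pup 3. These are 145 CPM (130 to 161) and 178 CPM (164 to 194), a mean of 162 ± 23.9 CPM (SD, n = 2), and the counting intervals of the pups did not overlap. Mir1264 had 308 and 457 counts, or 132 CPM (117 to 147) in pup 1 and 143 CPM (130 to 157) in pup 3, a mean of 137 ± 7.95 CPM (SD, n = 2). The lower pup of Mir448 lay just above the higher pup of Mir1264, but their counting intervals overlapped in pup 1, so these neighbours were not separate. Divided by the length of the annotated hairpin their order turned, with 160 CPM per 100 bases for Mir1264 and 144 for Mir448. No other pair of members changed places on that scale.

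Mir764 had 18 counts in pup 1 and 31 in pup 3, or 7.70 CPM (4.56 to 12.2) and 9.70 CPM (6.59 to 13.8). It made up 1.04% and 1.26% of the Htr2c counts, and pup 1 held 59.2 counts of Mir1298 for each count of Mir764. Mir1912 had 2 counts in each pup, 0.856 CPM (0.104 to 3.09) and 0.626 CPM (0.0758 to 2.26), under the level of 3 counts in both. At this depth Mir1912 was therefore not told apart from the level that a count of 0 allows.

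Neighbours in 1 intron thus stood at very different levels. Mir1912 and Mir1264 are 1073 bases apart on the same strand of intron 3, and the counts of Mir1264 were 154 times those of Mir1912 in pup 1 (exact 95% interval 42.3 to 1277) and 228 times in pup 3 (62.9 to 1892). Mir448, in another intron than Mir1264, was 1.10 times as high in pup 1 and 1.25 times in pup 3. The annotation places 2 more predicted hairpins in Htr2c that are not among the members, Gm22650 with 1 count in each pup and Gm24627 with 0.

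In Gabre, Mir224, a microRNA well known from liver tumours, had 70 counts in pup 1 and 182 in pup 3. These are 30.0 CPM (23.3 to 37.8) and 57.0 CPM (49.0 to 65.9), so the pups lay apart by more than counting error. Mir452, a microRNA studied in neural crest cells, had 28 and 36 counts, or 12.0 CPM (7.96 to 17.3) and 11.3 CPM (7.89 to 15.6), with overlapping intervals. Mir224 was the higher of the pair in both pups, 2.50-fold in pup 1 and 5.06-fold in pup 3. Its share of the Gabre counts was 71.4% in pup 1 (exact binomial 95% interval 61.4 to 80.1) and 83.5% in pup 3 (77.9 to 88.2), and these intervals overlap.

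In falling order of mean CPM the members were Mir1298, Mir448, Mir1264, Mir224, Mir452, Mir764 and Mir1912. The steps from Mir1298 to Mir448, from Mir1264 to Mir224 (3.16-fold), from Mir224 to Mir452 (3.74-fold) and from Mir764 to Mir1912 separated both the pups and the counting intervals. In the last of these steps Mir764 had 9.00 times the counts of Mir1912 in pup 1 (2.15 to 80.0) and 15.5 times in pup 3 (3.94 to 134). Mir452 and Mir764 were not separate, since their counting intervals overlapped in both libraries. Each pup alone gave the same order.

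**Figure D2:**
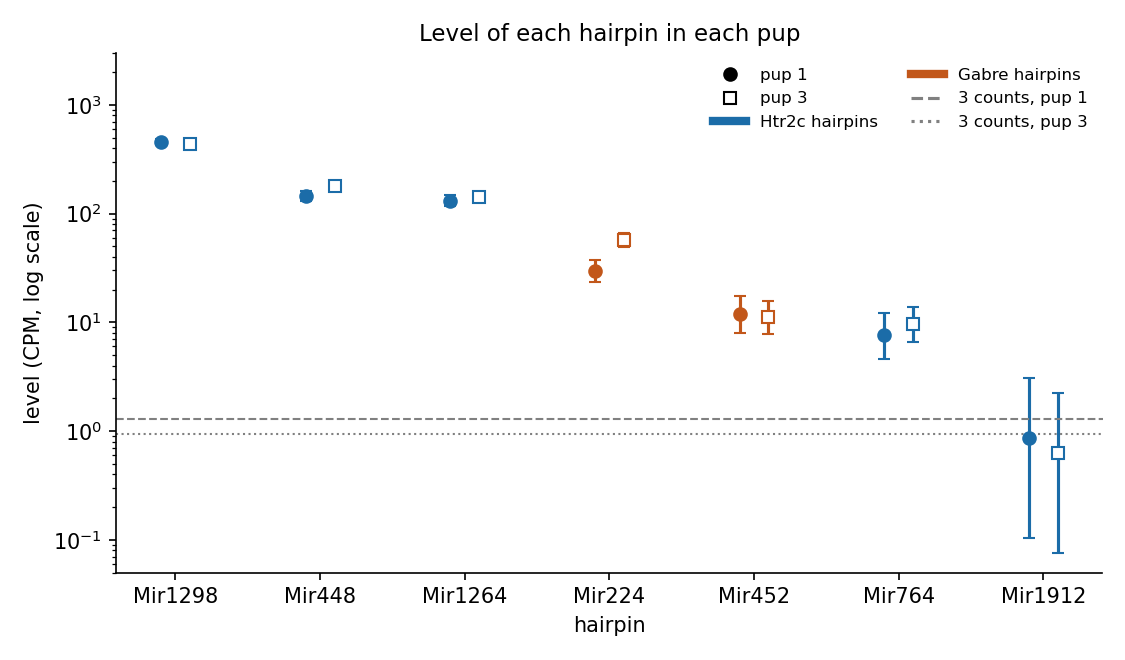
Level of each hairpin in each pup: the y axis is CPM on a log scale, filled circles are pup 1, open squares pup 3, bars are exact Poisson 95% intervals that cover counting error only, and the grey lines mark 3 counts in each library. The bars of the pups do not overlap for Mir224, at 30.0 and 57.0 CPM, and for Mir448, at 145 and 178 CPM, and both points of Mir1912 lie under the lines.

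The pups were then compared hairpin by hairpin, as a ratio of pup 3 to pup 1 on TMM-scaled library sizes, and the counts were tested with Fisher's exact test (two-sided). Such a test sets 1 library against another and no replicate stands behind it. A mean count of 10 was required, which 372 genes reached, and 2.69% of them were called at 2-fold or more and a Benjamini-Hochberg adjusted p below 0.05. None of the 6 members tested was called, Mir1912 being below the count minimum. At any fold, 2 of the 6 passed the adjusted Fisher's exact test, Mir224 and Mir448, against 44.1% of the tested genes, and the same 2 had an unadjusted p below 0.05, against 48.7% of the tested genes.

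Mir224 was 1.83-fold higher in pup 3, with an exact 95% counting interval of 1.39 to 2.46 (log2 ratio 0.87, Fisher's exact adjusted p = 9.94e-06). Of the 372 tested genes 9 had a higher log2 ratio. Mir448 was 1.19-fold higher in pup 3 (1.04 to 1.37, Fisher's exact adjusted p = 0.00590). Mir452 had a ratio of 0.910 (0.539 to 1.55), an interval that overlaps that of Mir224. The difference between the ratios of the pair was not itself tested.

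Among the other Htr2c hairpins the ratio was 0.935 (0.863 to 1.01) for Mir1298, 1.05 (0.906 to 1.22) for Mir1264 and 1.21 (0.660 to 2.31) for Mir764, and none of these passed. The summed Htr2c counts had a ratio of 1.01 (0.948 to 1.07), against 1.57 (1.23 to 2.02) for the summed Gabre counts. The median absolute log2 ratio of the 6 tested members was 0.19, beside 0.17 over all 372 tested genes.

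Markers of other cell types were read beside these ratios. All 7 epithelial hairpins of the list (Mir200a, Mir200b, Mir200c, Mir141, Mir429, Mir203 and Mir205) passed at any fold with the higher level in pup 3, against 26.1% of the tested genes. Mir429, Mir200c, Mir200b, Mir141 and Mir200a were also called at 2-fold or more, against 1.61% of the tested genes higher in pup 3, and they were 5 of the 10 genes called in either direction. Their ratios ran from 5.50 for Mir429, which had 53.9 and 308 CPM, to 13.1 for Mir200a, which had 4 and 81 counts. Mir200a, Mir200b and Mir429 lie close together on chromosome 4, and Mir200c and Mir141 lie close together on chromosome 6. The counts of 7 and 5 hairpins therefore do not stand for as many separate loci. Mir203 and Mir205, on other chromosomes, differed less, with a ratio of 1.10 for Mir203 and 21.0 and 32.5 CPM for Mir205. The sum of the list was 666 CPM in pup 1 against 1252 CPM in pup 3, a smaller ratio because Mir203 held most of it in pup 1, with 550 and 625 CPM. These hairpins thus moved in the same direction as Mir224. That direction was not particular to them. The neuronal Mir137 and Mir153 also passed with the higher level in pup 3, at ratios of 1.16 and 1.10, while Mir132 and Mir212 did not pass. The part of any of these hairpins in the Mir224 difference was not tested. The mural and mesenchymal list, led by Mir143, had a sum of 7506 CPM in pup 1 against 7374 CPM in pup 3. Of its 5 tested hairpins 1 passed at any fold, against 44.1% of the tested genes. That was Mir214, lower in pup 3, with 245 and 206 CPM. Mir199a-1 had 0 counts in pup 1 and 1 in pup 3. Reads that fit both Mir199a-1 and its copy Mir199a-2 entered no gene, so that low count does not show absence. Endothelial Mir126a was lower in pup 3, with 36188 and 30095 CPM. The erythroid list was lower there too, with sums of 125 and 74.2 CPM, a difference carried by Mir451a with 86.4 and 31.0 CPM, which was called. The other two did not pass the adjusted Fisher's exact test and went opposite ways, Mir144 with 20.1 and 29.1 CPM and Mir486 with 18.0 and 14.1 CPM.

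Because Htr2c is abundant in choroid plexus epithelium, microRNAs of choroid plexus and multiciliated cells were also read. Of the 7 on the list 5 were detected, and the list had a sum of 3943 CPM in pup 1 against 4310 CPM in pup 3. Its members did not move together. Of the 5 tested, 2 passed at any fold with the higher level in pup 3 and 1 with the lower. Over all tested genes 44.1% passed at any fold, and 26.1% did so with the higher level in pup 3. Mir449a and Mir34c, known from multiciliated cells, passed at any fold with the higher level in pup 3, at 1647 and 2038 CPM and at 907 and 1052 CPM. Mir204, known from choroid plexus epithelium, passed with the lower level in pup 3, at 1350 and 1178 CPM. Its relative Mir211 had 24 and 28 counts, or 10.3 and 8.76 CPM, and Mir34b had 27.4 and 31.9 CPM, and neither passed. Mir449b and Mir449c were near 0 with at most 4 counts in a library. The sum of this list was above that of the Htr2c hairpins in both pups, and the part of these cells in the Htr2c counts was not tested.

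**Figure D3:**
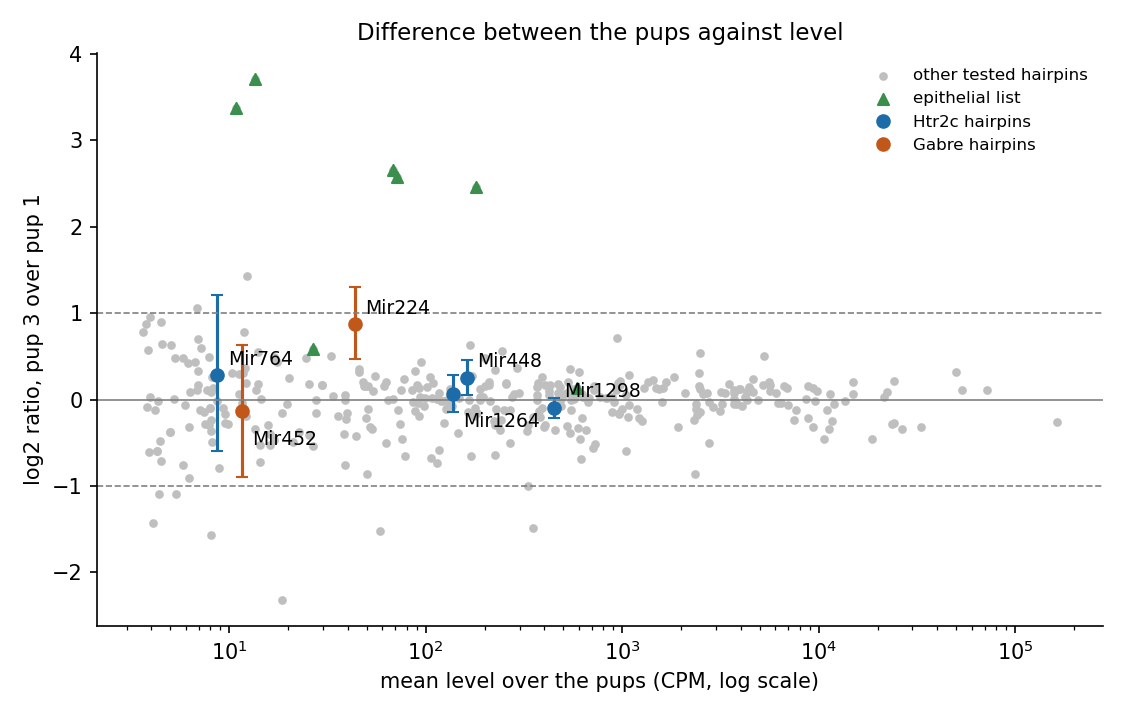
Difference between the pups against level: the x axis is the mean level in CPM on a log scale, the y axis the log2 ratio of pup 3 over pup 1, grey points are the other tested hairpins, green triangles the epithelial list, and bars on the named hairpins are exact 95% counting intervals. The dashed lines mark 2-fold. Mir224 lies at 0.87, inside the 2-fold line, and the other 5 named hairpins lie between -0.14 and 0.28.

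The members were set beside other intronic hairpins. Mir188, Mir362, Mir500, Mir501 and Mir532, which share introns of the chloride transporter gene Clcn5 on the X chromosome, were all detected, from 109 CPM for Mir362 to 1596 ± 15.8 CPM for Mir532 (SD, n = 2), with a median of 565 CPM. Mir1298, Mir448 and Mir1264 therefore stood within the range of that cluster, and the remaining 4 members below all of it. Hairpins in 8 other neuronal genes were all detected as well, led by Mir153 at 9302 ± 849 CPM (SD, n = 2), with a median of 1433 CPM. This list holds the copies Mir128-1 and Mir128-2, and Mir218-1 and Mir218-2. Reads that fit both copies of a pair entered no gene, so their levels and this median are uncertain. These are levels in the same 2 libraries, and no test of the groups was made.

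A further 14 counted hairpins, the predicted Gm22650 and Gm24627 of Htr2c among them, lie inside genes with the symbol prefix of a neurotransmitter receptor. Of the 14, 2 were detected, against 18.2% of all 1973 genes. Mir592, in an exon of a transcript of the glutamate receptor gene Grm8, had 524 ± 32.6 CPM (SD, n = 2). Mir490, in an intron of the muscarinic receptor gene Chrm2, had 92.7 ± 8.29 CPM (SD, n = 2). Mir592 had 501 and 547 CPM in the pups, close to the level of Mir1298. Mir105, one of the 2 hairpins of the GABA-A receptor gene Gabra3, had 0 counts in both pups and Mir767, the other, had 1 in each. Of the 14, 8 had 0 counts in both pups. Over the whole table, 697 of the 1973 genes had a count in either pup and the rest had 0.

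**Figure D4:**
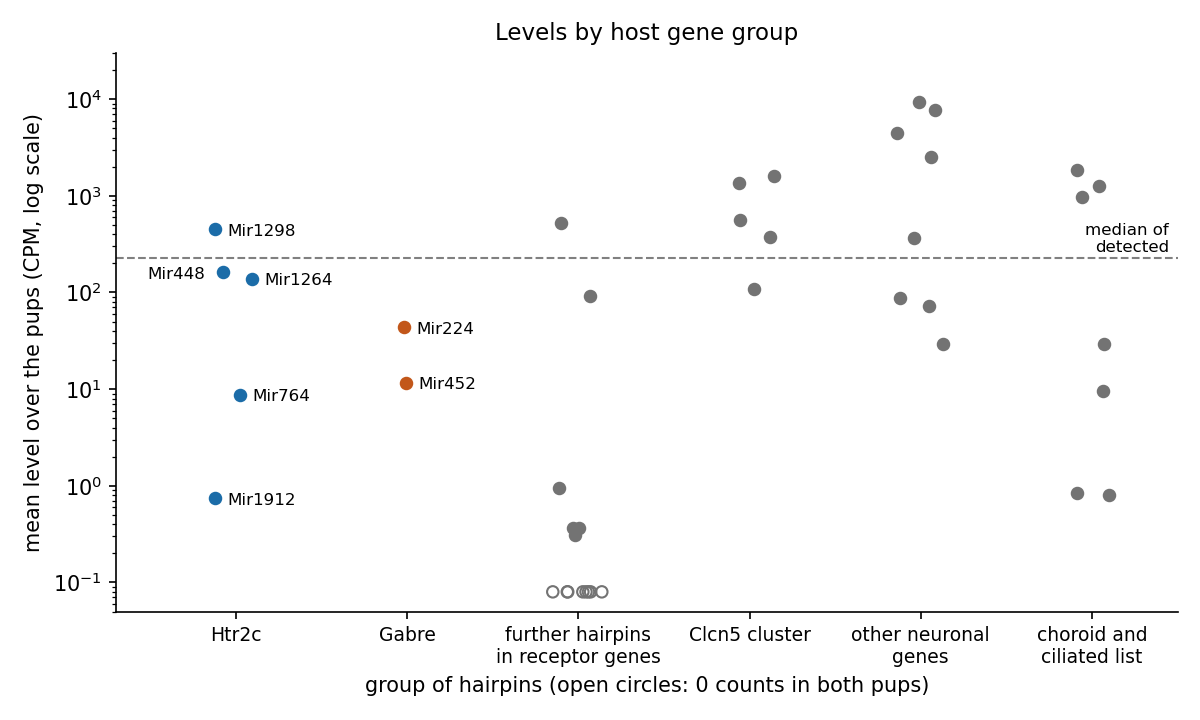
Levels by host gene group: each point is 1 hairpin, the y axis is the mean level over the 2 pups in CPM on a log scale, open circles at the bottom are hairpins with 0 counts in both pups, and the dashed line is the median of the detected genes, 225 CPM. Only Mir1298 of the 7 named hairpins lies above that line.

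The genes whose pair of levels was most like that of Mir1298, by Euclidean distance in log2(CPM + 1) over the 2 libraries, were Mir16-2 (distance 0.161), Mir455 (0.162) and Mir222 (0.167). Mir16-2 lies in an intron of Smc4 and has a close copy elsewhere in the genome, so its own level is uncertain. Mir455 lies in an intron of Col27a1, and Mir222 had no host on its strand. The genes nearest to Mir224 were Mir19a (0.402), Mir879 (0.425) and Mir1198 (0.544), all farther away than the neighbours of Mir1298. Mir19a stood at 39.4 CPM in pup 1 and at 52.3 CPM in pup 3, both between the values of Mir224. With 2 libraries such a likeness describes little more than level and ratio.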

How the data were processed

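Each library has 1 table of raw counts per microRNA gene, deposited by the authors and made, per the deposited descriptions, by alignment to mm10 and annotation M4. Which aligner and counter made them is not given in the sources used here. Own-strand counts were used. The 4 rows that name no gene held 57.2% (pup 1) and 56.7% (pup 3) of the reads and stayed out of totals and tests. Identifiers were matched to GENCODE M21 on GRCm38, which gave 1894 of the 1973 genes a symbol.

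CPM, intervals and Fisher's exact tests (Python 3.11.15, scipy 1.17.1) were computed from the counts. Ratios used TMM sizes (edgeR 4.0.16) and a prior count of 0.5, while the Fisher test used unscaled totals. Folding energies came from RNAfold 2.7.2. The calculations were tested on simulated data. Reads carry no molecular identifiers used here, so intervals cover counting error only.

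The members and lists were chosen with earlier results of these data known. Named are the 7 members, the 3 genes nearest to the highest member of each host, and the highest gene of each list, with the other list members added after their values were seen. Alternatives were other strand columns, totals, scalings, including DESeq2 1.42.0 size factors, count minimums, prior counts and folds, and each pup alone.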

Additional observations from a re-analysis of the deposited data

How the results depend on the processing

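Precision is limited by counts of 2 for Mir1912, 18 to 36 for Mir764 and Mir452, and by n = 2. With all reads in place of gene counts as the total, the median member level of 43.5 CPM became 18.7, the Htr2c sum of 757 CPM became 326 and the Gabre sum of 55.1 CPM became 23.7. The Htr2c sum was 732 CPM with either-strand totals and 904 CPM without the most abundant gene, in both cases because the total changed. Each pup alone gave 741 and 773 CPM for Htr2c and 41.9 and 68.2 CPM for Gabre. Of all genes tested, 10 were called. That count was 5 with a mean count of at least 50, 24 at 1.5-fold or more and 164 at any fold. Among the 6 members tested 0 were called, against 2.69% of all genes tested. At 1.5-fold or more 1 was called (Mir224), against 6.45% of all genes tested. At any fold 2 were called (Mir224 and Mir448), against 44.1%. No log2 ratio of a tested member changed direction under the alternatives run, and that of Mir224 lay between 0.86 and 0.92. Other folds and count minimums leave the ratio as it is, so only the strand column, scalings and prior counts could have changed it. With at least 1 count required in each library 7 members were detected, against 28.3% of all genes, Mir1912 entering with its 2 counts. The other settings tried gave 6 members, against 18.2% to 20.5% of all genes.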

Other observations

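The levels of the 7 hairpins were also set beside the stability of their predicted folds. Mir1912, with 2 counts in each pup, had a minimum free energy of -47.2 kcal/mol per 100 bases, and Mir1298, the most abundant, had -47.2 as well. Mir1264, which lies next to Mir1912 and had far more counts, had the weakest fold of the 7 at -39.9 kcal/mol per 100 bases. The median of the 359 detected hairpins was -43.4 and that of all 1894 counted hairpins with a sequence was -37.9. The GC content ran from 36.0% for Mir1264 to 52.7% for Mir448, beside a median of 50.5% over the detected hairpins. These are predictions for the whole annotated hairpin and are given as a description.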
